A study of Mus musculus with 3 samples.

Results

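Isg15 and the genes of its conjugation system were described in phagocytes of mouse Peyer's patches, the lymphoid follicles of the small intestine. The members were chosen by name, and all 5 (Isg15, Usp18, Herc6, Uba7 and Ube2l6) were among the 27998 genes counted. The cells were CD11c+ phagocytes sorted by flow cytometry as cDC1 and cDC2 (conventional dendritic cells of types 1 and 2), LysoDC (lysozyme-making dendritic cells of monocyte origin) and macrophages, and their RNA was measured by droplet single-cell sequencing of transcript 3′ ends. There were 3 libraries, each from 12 pooled female C57BL/6Rj mice. The Control mice were untreated, with no mock injection. The CpG mice were given 125 µg of CpG, a DNA that triggers TLR9, and the R848 mice 10 µg of R848, a small molecule that triggers TLR7, each by the intraperitoneal route in 100 µL of PBS for 9 h. The Control, CpG and R848 pools drew on 88, 85 and 90 Peyer's patches. With 1 library per group there was no replicate, so no test was run, and the intervals below are exact 95% intervals that cover counting error only.

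ISG15 is a small ubiquitin-like protein made in response to type I and type III interferon. It is joined to target proteins by an enzyme chain that parallels the ubiquitin chain: UBA7 is the activating enzyme (E1), UBE2L6 the conjugating enzyme (E2) and HERC6 the main ligase (E3) in mice. USP18 removes ISG15 from its targets and also binds the interferon receptor subunit IFNAR2, where it dampens signalling. ISG15 also acts unconjugated, and a share of it is released from cells. All the genes of the chain are known as interferon-stimulated genes.

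On GRCm38, the assembly called mm10, GENCODE M21 places Isg15 (ENSMUSG00000035692) at chr4:156199424-156200818 on the minus strand. Usp18 (ENSMUSG00000030107) lies at chr6:121245906-121270917 and Herc6 (ENSMUSG00000029798) at chr6:57581000-57664632, both on the plus strand. Uba7 (ENSMUSG00000032596) lies at chr9:107975505-107984060 and Ube2l6 (ENSMUSG00000027078) at chr2:84798828-84810335, also on the plus strand. The levels below are UMIs over the whole gene, where a UMI is 1 tagged transcript molecule. Other gene models overlap 3 of the members. Gm20661 overlaps Uba7 on the same strand and was counted at 0, 3 and 5 UMIs in Control, CpG and R848, against 1067, 3234 and 3261 for Uba7. Gm44148, on the strand opposite to Usp18, was counted at 17, 9 and 6 UMIs. A same-strand model over Herc6, Gm45193, is not among the counted genes.

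Since the members were higher together in the treated libraries, the 250 bases before each RefSeq start site were searched for interferon response letters. The RefSeq promoter table (GRCm38.p6) matched 4 of the 5 members, all but Usp18. The motifs were the ISRE core (GAAA, any pair of bases, GAAA), the shorter IRF core AANNGAAA that each ISRE core also holds, and the STAT element TTCNNNGAA, each on both strands. The Isg15 window is shown whole, with the bases of ISRE and IRF core matches in capitals, because it was the member window that held ISRE cores: 3 overlapping ones, which begin 78, 72 and 66 bases before the start. For Uba7 a stretch of 30 bases is shown around its single IRF core, which begins 27 bases before the RefSeq start. The Uba7 window ends at chr9:107975566, past the GENCODE start given above (chr9:107975505). The stretch shown thus lies inside the GENCODE gene model.
Isg15 (chr4:156200819-156201068, minus strand): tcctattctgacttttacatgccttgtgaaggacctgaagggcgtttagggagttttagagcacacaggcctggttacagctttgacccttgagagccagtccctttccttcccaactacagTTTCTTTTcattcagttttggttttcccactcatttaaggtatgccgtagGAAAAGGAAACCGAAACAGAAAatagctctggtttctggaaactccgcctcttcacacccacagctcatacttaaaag
Uba7 (chr9:107975529-107975558, plus strand): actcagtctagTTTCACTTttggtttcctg
The windows of Herc6 and Ube2l6 held no match to these letters. Among 32851 promoters of the same length, 2.98% held an ISRE core, 21.3% an IRF core and 7.02% the STAT element, which no member window held. These matches describe letters and not bound sites.

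The libraries held 43537067 (Control), 43767864 (CpG) and 46556726 (R848) UMIs, and 5079, 4821 and 4898 cells were kept. Between 33 and 42 cell barcodes were shared by any pair of libraries. Clusters, formed without the members and other interferon-stimulated genes, were named from marker lists. The rebuilt names gave, in Control, CpG and R848, 1887, 361 and 341 cDC2-like cells, 1272, 790 and 687 LysoDC-like cells, 583, 404 and 797 macrophage-like cells, and 249, 2398 and 2177 mature dendritic cell-like cells (Ccr7 and Fscn1). The sorted cDC1 were named in Control (475 cells) and in 1 CpG cluster of 46 cells, which also carried Ccr7 at 2513 CPM (UMIs per 1000000 UMIs of the summed cells), while no R848 cluster was named cDC1-like. Free RNA, estimated from complement genes of macrophages in mature dendritic cell-like cells, was 4.52%, 2.47% and 2.49% of UMIs, and would give Isg15 levels of 3.30, 42.7 and 28.4 CPM. Marker lists of other cells also differed between libraries within classes. The endothelial list was higher in treated LysoDC-like cells (33.4 against 110 CPM with CpG and 102 with R848), where Pecam1 was the 1 of its 4 genes at 5 CPM or more. The macrophage list was lower in treated cDC2-like cells (1309 against 558 and 606 CPM), and the LysoDC list was lower in treated mature dendritic cell-like cells (2773 against 1067 and 1063 CPM). In macrophage-like cells the endothelial list, again through Pecam1, was at 41.0 CPM in Control against 134 and 107, and the proliferation list was at 106 CPM in Control against 249 with R848. In the mature class the endothelial list was at 11.3, 55.2 and 27.9 CPM, and the monocyte list, through Plac8, at 441 CPM in Control against 1206 with R848. The cDC2 list was lower there, at 142, 62.3 and 62.7 CPM. The NK cell list lay between 0 and 1.3 CPM in every class compared. The part of these other markers in the results was not tested.

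In the Control library Isg15, the modifier itself, was at 57.5 CPM in cDC2-like cells (53.3 to 61.9), 77.6 in LysoDC-like cells (72.8 to 82.5), 83.2 in macrophage-like cells (75.7 to 91.2), 45.8 in cDC1-like cells (39.0 to 53.5) and 255 in mature dendritic cell-like cells (229 to 284). The mature class was the highest for each of the 5 members in Control, with intervals clear of those of the other 4 classes for Isg15, Usp18, Uba7 and Ube2l6. Herc6 was the exception, since its interval there (19.7 to 38.5 CPM) overlapped that of macrophage-like cells (16.3 to 24.0). LysoDC-like and macrophage-like cells did not differ beyond these intervals in Isg15. The levels are not scaled to transcript length and are compared here between classes, not between genes.

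**Figure D1:**
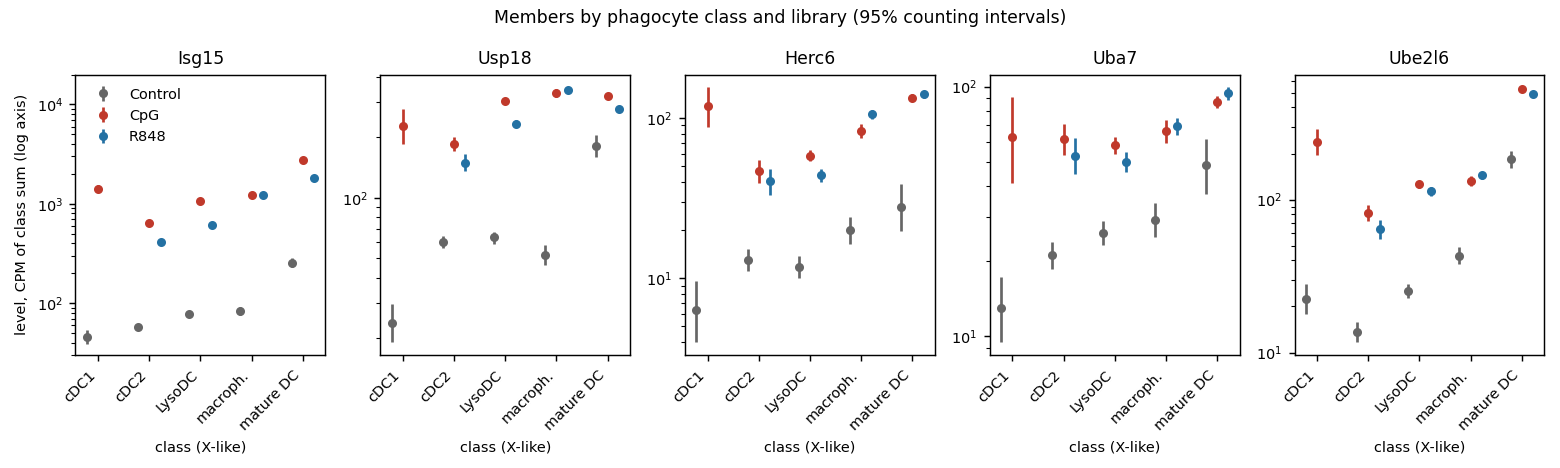
Levels of the 5 members in CPM of the summed UMIs of each class (log axis), for Control (grey), CpG (red) and R848 (blue), with 95% counting intervals as bars. Every treated point lies above the Control point of its class, and the Control point of the mature class is the highest of the grey points in each panel.

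Isg15 was higher in both treated libraries in every class compared. In cDC2-like cells it was at 57.5 CPM in Control, 644 with CpG and 416 with R848, ratios to Control of 11.2 (10.3 to 12.2) and 7.23 (6.58 to 7.95). That class held different clusters in each library: 5 in Control with Isg15 from 17.8 to 98.8 CPM, among them 1 high in Cd209a (845 CPM) and 1 with Ccr7 at 863 CPM, but 1 in CpG, led by Plet1 with Cd209a at 1.22 CPM, and 2 in R848 with Isg15 at 361 and 608 CPM. In LysoDC-like cells Isg15 was at 77.6, 1079 and 607 CPM, ratios of 13.9 (13.04 to 14.9) and 7.83 (7.32 to 8.38). Macrophage-like cells held 83.2, 1238 and 1241 CPM, with the same ratio to 3 digits for both agonists, 14.9. The mature dendritic cell-like class reached the highest treated levels, 2766 CPM with CpG and 1824 with R848, from the highest Control level, 255. Its ratios of 10.8 (9.73 to 12.1) and 7.14 (6.42 to 7.98) were the lowest of the 4 classes. Their intervals overlapped those of cDC2-like cells. Isg15 ranked between 4 and 13 among the 4284 to 5046 genes measured in these 8 comparisons. The whole libraries stood at 72.9, 1724 and 1140 CPM, on 3175, 75442 and 53051 Isg15 UMIs.

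In the 46 CpG cDC1-like cells Isg15 was at 1420 CPM against 45.8 in Control, a ratio of 31.0 (26.0 to 37.1), but the mature dendritic cell list was at 8370 CPM there against 641 in Control, so maturation and treatment cannot be told apart in that pair. Of the other members there, Usp18 was at 23.9 CPM in Control and 227 with CpG, and Herc6 at 6.34 and 118 CPM, a ratio of 18.7 (11.1 to 32.3). Uba7 was at 12.97 and 62.7 CPM and Ube2l6 at 22.5 and 239 CPM. Control cDC1-like cells had the lowest Control level of Isg15, Usp18, Herc6 and Uba7 among the 5 classes. The 2 treatments were each set against the same Control library, so their ratios share its counting error.

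Usp18, the deconjugating enzyme, followed the order of classes of Isg15 by ratio to Control, but not by level. It was at 52.0 CPM in Control macrophage-like cells, 334 with CpG and 344 with R848, ratios of 6.42 (5.66 to 7.30) and 6.61 (5.85 to 7.48), its largest among the 4 classes present in all libraries. In LysoDC-like cells the levels were 63.5, 306 and 234 CPM, and in cDC2-like cells 60.4, 186 and 150 CPM. The ratios to Control were 4.81 and 3.69 in the first and 3.08 and 2.48 in the second. Mature dendritic cell-like cells already held 181 CPM in Control (159 to 206) and reached 323 with CpG and 277 with R848, ratios of 1.78 (1.57 to 2.04) and 1.53 (1.34 to 1.75). Usp18 thus showed its lowest ratio in the class with its highest Control level. Among these 4 classes so did Isg15, Ube2l6 and, with CpG, Uba7. The treated levels of Usp18 in the mature class were no higher than in macrophage-like cells.

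Uba7, the activating enzyme, had the lowest ratios of the members in LysoDC-like and macrophage-like cells. It was at 21.2 CPM in Control cDC2-like cells, 61.4 with CpG and 52.9 with R848, ratios of 2.90 (2.40 to 3.50) and 2.50 (2.03 to 3.06). In LysoDC-like cells it was at 26.0, 58.3 and 49.9 CPM and in macrophage-like cells at 29.4, 66.4 and 69.5 CPM. Ratios in these 2 classes ran from 1.92 to 2.37. In mature dendritic cell-like cells it was at 48.4, 86.8 and 94.0 CPM, ratios of 1.80 (1.40 to 2.35) and 1.94 (1.51 to 2.54). Without doublet removal, and with a stricter cell filter, the Control class held 49 and 50 cells, and the log2 ratio of Uba7 was then -0.40 with CpG under both and -0.28 and -0.30 with R848.

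Ube2l6, the conjugating enzyme that hands ISG15 to the ligase, had its largest ratios among the 4 classes present in all libraries in cDC2-like cells, where it was at 13.6 CPM in Control, 81.9 with CpG and 63.8 with R848 (ratios of 6.01, 4.93 to 7.34, and 4.68, 3.77 to 5.81). In LysoDC-like cells it was at 25.3, 126 and 113 CPM, and in macrophage-like cells at 43.0, 132 and 144 CPM. The mature class stood apart in level: 183 CPM in Control, 530 with CpG and 492 with R848. Its Control level was above the treated levels of LysoDC-like, macrophage-like and cDC2-like cells, although its ratios, 2.90 (2.55 to 3.31) and 2.69 (2.37 to 3.07), were the lowest for this gene. Under the 2 settings with 49 or 50 Control cells its log2 ratio in the mature class was as low as 0.58 with CpG and 0.52 with R848, in place of 1.51 and 1.40.

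Herc6, the ligase, was at 11.8 CPM in Control LysoDC-like cells, 58.3 with CpG and 43.8 with R848, and at 12.98, 46.5 and 40.3 CPM in cDC2-like cells. In macrophage-like cells it was at 19.9, 83.0 and 106 CPM, ratios of 4.18 (3.38 to 5.20) and 5.32 (4.36 to 6.55). In mature dendritic cell-like cells it was at 28.0, 134 and 141 CPM, ratios of 4.80 (3.47 to 6.84) and 5.03 (3.63 to 7.16). In the mature class Herc6 stayed higher but under 2-fold in the 2 settings that left 49 or 50 Control cells. Its log2 ratio there was as low as 0.61 with CpG and 0.72 with R848, in place of 2.08 and 2.14.

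A gene was counted as higher at a log2 ratio of 1 or more after adding 5 CPM to both levels. With CpG, 5 of 5 members were higher in each of the cDC2-like, LysoDC-like and macrophage-like classes, against 2.6%, 2.96% and 3.64% of all genes with at least 20 CPM. With R848 the counts were 5 of 5 in cDC2-like cells (1.81% of all genes), 4 of 5 in the LysoDC-like class (3%) and 5 of 5 in the macrophage-like one (6.48%). The member under the limit in LysoDC-like cells was Uba7, with a log2 ratio of 0.83. In mature dendritic cell-like cells 3 of 5 were higher with CpG (7.61% of all genes) and 3 of 5 with R848 (4.76%), and Usp18 (0.82 and 0.60) and Uba7 (0.78 and 0.89) were the pair under the limit. Without doublet removal, and with the stricter cell filter, the mature count was 1 of 5 with either agonist, and Isg15 was the member that passed. In the CpG cDC1-like cells 5 of 5 were higher, against 16% of all genes. The members' median log2 ratio lay between 1.33 and 2.15 over the 8 comparisons of the 4 main classes, where the median of all genes lay between -0.01 and 0.15.

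**Figure D2:**
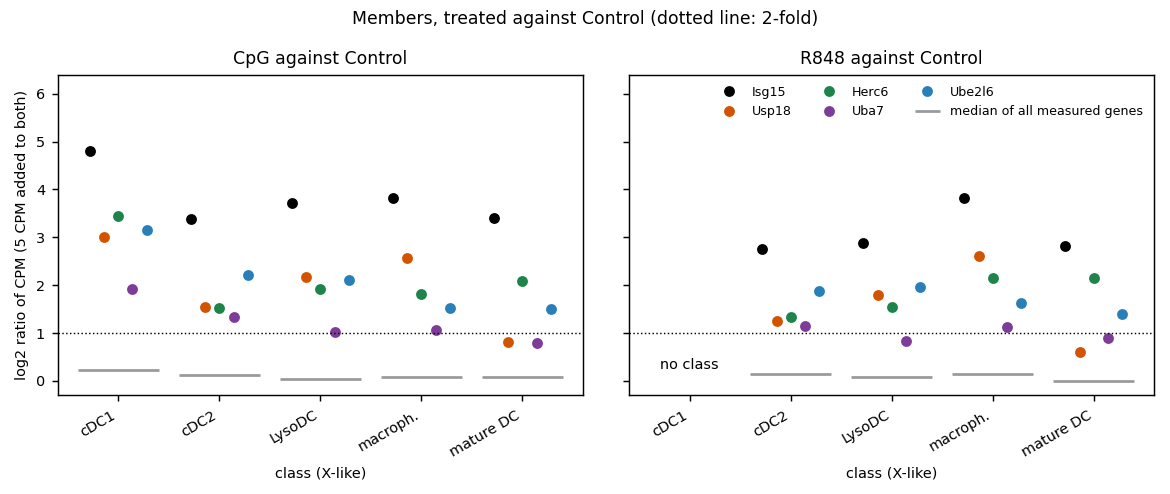
Log2 ratio of CPM, treated against Control with 5 CPM added to both, for each member by class; grey bars are the median of all measured genes and the dotted line marks 2-fold. Isg15 is the highest member in every class, and Usp18 and Uba7 lie under the dotted line in the mature class with both agonists; R848 had no cDC1-like class.

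Set against each other, the agonists differed by class. Isg15 with R848 was 0.645 times its CpG level in cDC2-like cells (0.60 to 0.69), 0.563 times in LysoDC-like cells (0.545 to 0.581) and 0.660 times in the mature class (0.649 to 0.670). In macrophage-like cells the ratio was 1.002 (0.972 to 1.03). The LysoDC-like class held 2 clusters with CpG, at 865 and 1470 CPM of Isg15, and 2 with R848, at 569 and 822 CPM. An R848 cluster of 423 cells with Lyz1 at 11508 and Isg15 at 1117 CPM stayed unnamed and was left out. The macrophage-like class held 1 cluster with CpG and 2 with R848, at 1173 (594 cells) and 1445 CPM (203 cells). In the smaller of these the neutrophil marker score, 0.69, was above the macrophage score, 0.48. When the libraries were clustered together, 61 CpG cells were named macrophage-like in place of 404, and 840 R848 cells in place of 797. The part of naming in the LysoDC-like and macrophage-like ratios was not tested. Ratios between agonists were not recomputed under the alternative settings. Of 4634 genes measured in LysoDC-like cells, 30 had a lower R848 to CpG ratio than Isg15, and of 4831 in cDC2-like cells 54 did. In the mature class 412 of 4208 genes lay lower, and in macrophage-like cells 2067 of 4957. The 2 mature levels, 1824 and 2766 CPM, both lay far above Control. Usp18 showed the same order with smaller differences: 0.81 (0.71 to 0.91) in cDC2-like, 0.77 (0.73 to 0.81) in LysoDC-like and 0.86 (0.82 to 0.90) in mature dendritic cell-like cells, and 1.03 (0.97 to 1.09) in macrophage-like cells. Herc6 was the member above 1 beyond its interval in macrophage-like cells, at 1.27 (1.14 to 1.43), and it was 0.75 (0.66 to 0.85) in LysoDC-like cells. Uba7 lay between 0.856 and 1.08 and Ube2l6 between 0.778 and 1.09 over the 4 classes. Whether the class changes the difference between agonists was not tested, since each rests on 1 library per group.

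**Figure D3:**
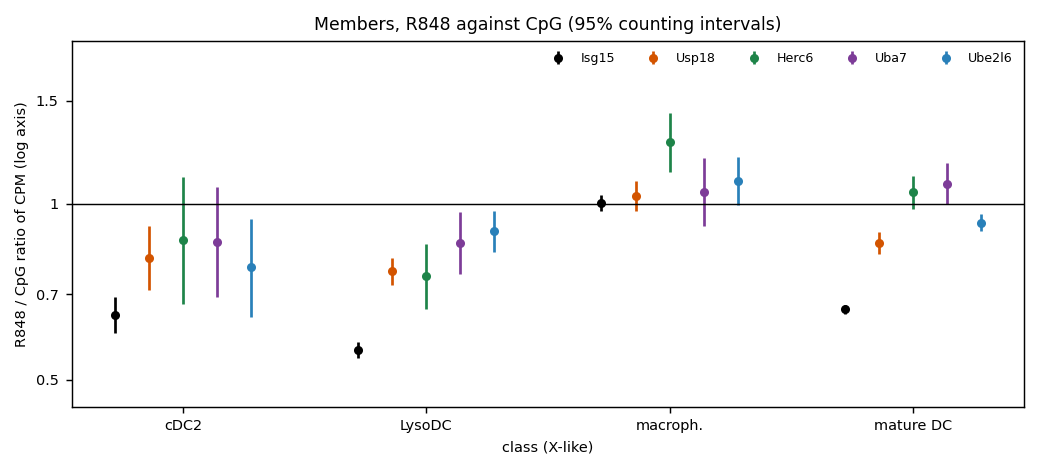
Ratio of CPM with R848 to CPM with CpG for each member by class (log axis), with 95% counting intervals. Isg15 lies between 0.56 and 0.66 in cDC2-like, LysoDC-like and mature dendritic cell-like cells and at 1.002 in macrophage-like cells.

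Other interferon-stimulated genes did not all share that order. Of the core list, 22 of 24 measured genes in cDC2-like and 23 of 29 in LysoDC-like cells were lower with R848 than with CpG, while 10 of 29 were lower in the macrophage-like class and 15 of 24 in mature dendritic cell-like cells. The median log2 ratios of the list were -0.23, -0.36, 0.03 and -0.06, beside medians of all genes of 0.00, 0.03, 0.06 and -0.08. Irf7, the transcription factor that amplifies interferon production, was higher with R848 in all 4 classes, with R848 to CpG ratios of 1.19, 1.12, 1.48 and 1.31 in the same order. Isg15 was thus lower with R848 in the mature class (0.66), where Irf7 was higher.

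The class levels were next resolved into cells, each thinned to 3000 UMIs so that depth did not set the share. In Control cDC2-like cells 12.8% of 1822 cells held an Isg15 UMI (11.3 to 14.4%), against 63.6% of 357 with CpG (58.4 to 68.6%) and 48.5% of 334 with R848 (43.0 to 54.0%). In LysoDC-like cells the shares were 16.5% of 1200, 85.6% of 759 and 69.0% of 671 cells, and in macrophage-like cells 20.3% of 571, 88.8% of 402 and 90.8% of 786. In mature dendritic cell-like cells they were 31.1% of 206, 94.3% of 2203 and 88.0% of 1969. The share that free RNA alone would give was 0.986% for Control, 12.0% for CpG and 8.17% for R848. Without thinning, the shares in LysoDC-like cells were 37.8%, 97.2% and 94.6%, at median depths of 10352, 13718 and 13766 UMIs. No class here is known to lack Isg15, so this expected share stands in for one. The other members were seen in these shares of Control, CpG and R848 mature cells: Usp18 in 34.5%, 54.1% and 50.4%, Ube2l6 in 31.6%, 73.5% and 72.0%, Herc6 in 9.71%, 30.3% and 31.4%, and Uba7 in 12.1%, 23.8% and 26.7%. Fewer than 3000 UMIs left out between 2 and 208 cells per class and library, or 1 of 46 CpG cDC1-like cells.

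The number of members seen in each thinned cell was also counted. This number rises with the share of cells that hold each member. Whether members met in the same cells more often than those shares give was not tested. No UMI of any member was found in 66.1% of Control cDC2-like cells, 20.4% with CpG and 23.4% with R848, and in 61.5%, 5.93% and 14.3% of LysoDC-like cells. In macrophage-like cells the shares without a member were 53.2%, 2.99% and 2.42%. In mature dendritic cell-like cells they were 26.7%, 1.04% and 1.52%. At the other end, 4 or 5 members were found in 22.5% of CpG and 20.8% of R848 mature dendritic cell-like cells, against 2.43% in Control. In macrophage-like cells that share was 0.18%, 7.96% and 11.6%, and in cDC2-like cells 0.11%, 3.92% and 3.29%.

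**Figure D4:**
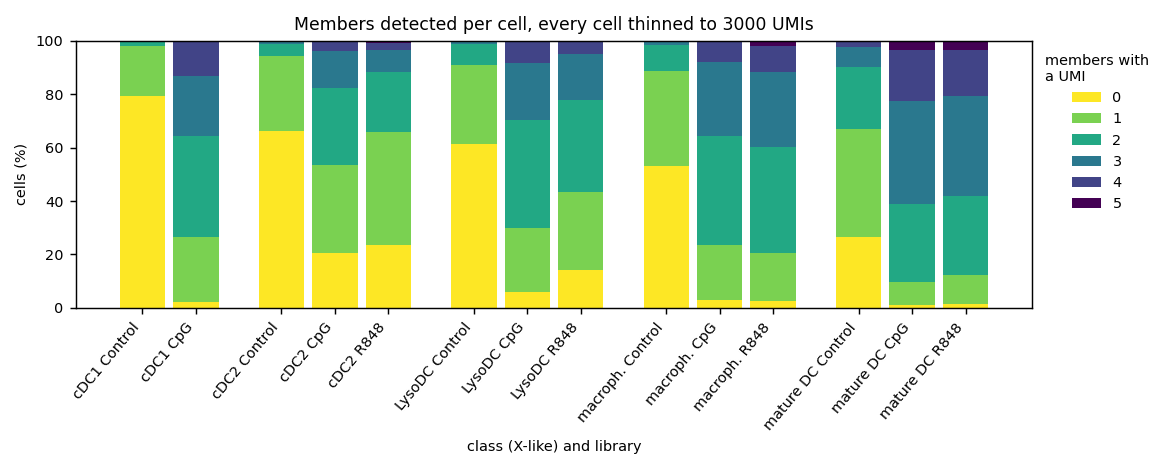
Share of cells (%) in which 0 to 5 members had a UMI, by class and library, every cell thinned to 3000 UMIs. Cells with no member make up 53.2 to 66.1% of Control LysoDC-like, macrophage-like and cDC2-like cells and 2.42 to 23.4% of the treated ones.

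In Control, Isg15 UMIs were few per cell, with 700 in 1887 cDC2-like cells and 159 in 475 cDC1-like cells. Such sparse counts by themselves place a large share of UMIs in few cells and lower the median. The part of this in the values below was not tested. The 5% of cells with the highest Isg15 CPM held 48.3% of its UMIs in cDC2-like cells, 41.0% in LysoDC-like, 36.0% in macrophage-like, 50.6% in mature dendritic cell-like and 79.9% in cDC1-like cells. In the treated classes, with more Isg15 UMIs per cell, that share lay between 12.7 and 37.2%, so it cannot be compared directly with Control. The median cell had no Isg15 UMI in any Control class, and its level was 2151 CPM in CpG and 1286 in R848 mature dendritic cell-like cells. Cells at 1000 CPM of Isg15 or more, a limit set after the values were seen, numbered 13 among 1887 Control cDC2-like cells, 10 among 1272 LysoDC-like, 2 among 583 macrophage-like, 20 among 249 mature and 3 among 475 cDC1-like cells. The 20 mature cells carried 63.6% of the Isg15 UMIs of their class, and the other mature cells stood at 101 CPM. Usp18 was also high in the Control cells above that limit: 505 CPM against 57.8 in the other cDC2-like cells (35 UMIs), 525 against 59.0 in LysoDC-like cells (66 UMIs) and 870.5 against 18.6 in cDC1-like cells (19 UMIs). In the mature class Usp18 differed less, 247 CPM above the limit (25 UMIs) and 176 below. Ube2l6 stood at 345 CPM above the limit and 169 below in the mature class. The 2 Control macrophage-like cells above it held no Usp18 UMI.

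Mature dendritic cell-like clusters were split by Sirpa, a cDC2 marker, at 20 CPM, a limit set after the values were seen. In Control, Isg15 was at 351 CPM in the Sirpa-high cluster of 172 cells and 101 CPM in the Sirpa-low cluster of 77, a ratio of 3.48 (2.57 to 4.78). With CpG the order was the opposite: 2476 CPM in 1436 Sirpa-high and 3183 in 962 Sirpa-low cells, a ratio of 0.78 (0.76 to 0.79). With R848 the levels were 1764 and 1884 CPM, a ratio of 0.94 (0.91 to 0.96). In Control, 20 of the 249 mature cells carried 63.6% of the Isg15 UMIs of the class, and the others stood at 101 CPM. The part of these few cells in the Control order was not tested. Against Control, Isg15 was 7.06-fold (6.28 to 7.96) higher with CpG in Sirpa-high and 31.5-fold (24.0 to 42.4) higher in Sirpa-low cells, where it ranked 1 of 4030 genes. Usp18 had 1 order in each library, with a higher level in Sirpa-high cells, by 1.21-fold in Control (0.92 to 1.60), 1.69-fold with CpG (1.59 to 1.80) and 1.25-fold with R848 (1.17 to 1.34). Uba7 was likewise 1.62-fold (1.44 to 1.84) higher in Sirpa-high cells with CpG and 1.31-fold (1.17 to 1.47) with R848, whereas Herc6 and Ube2l6 differed by at most 1.07-fold in the treated libraries. Usp18 with R848 was 0.79 times its CpG level in Sirpa-high cells (0.75 to 0.84) but 1.07 times in Sirpa-low cells (0.997 to 1.15). Isg15 was lower with R848 in both, at 0.71 and 0.59 times its CpG level. Xcr1, the cDC1 marker, was at 37.6, 5.87 and 58.0 CPM in the Sirpa-low cells of Control, CpG and R848.

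Within the Sirpa-low clusters Herc6 did not follow Isg15, as shown by the clusters lowest and highest in Herc6. The remaining Sirpa-low clusters lay between them, with Herc6 at 117 CPM with CpG and at 80.3 and 171 CPM with R848. With CpG, the cluster of 381 cells with the highest Isg15 of all clusters (3854 CPM) had Herc6 at 44.6 and Uba7 at 35.4 CPM, and the cluster of 199 cells with Isg15 at 3091 CPM had Herc6 at 266 and Uba7 at 80.5 CPM. With R848, a cluster of 225 cells (Isg15 2339 CPM) had Herc6 at 37.3 CPM and 1 of 334 cells (Isg15 2285 CPM) had Herc6 at 268 CPM. Uba7 was at 50.6 and 104 CPM there, so it was higher where Herc6 was higher in both pairs. Ube2l6, by contrast, was at 711 and 470 CPM in the first pair and 602 and 559 CPM in the second. The clusters low in Herc6 had median depths of 3727 and 3372 UMIs, and those high in it 5758 and 5412. The part of depth in this difference was not tested. Herc6 also differed between the Sirpa-high clusters of CpG, at 97.8 and 202 CPM where Isg15 was at 2393 and 2607 CPM.

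A group of unnamed clusters stood low in Ube2l6 and was picked after the values were seen. In each library, the cluster of 100 cells or more with the lowest Ube2l6 was an unnamed one with Cdh17, Klrd1 and Pglyrp1 among its 10 leading genes. Ube2l6 there was at 2.37 CPM in Control (286 cells, 4 UMIs, 0.65 to 6.08), 35.8 with CpG (158 cells, 26.6 to 47.2) and 33.1 with R848 (177 cells, 23.7 to 45.1). The next lowest clusters, all cDC2-like, were at 6.90, 81.9 and 51.6 CPM, on 29, 268 and 115 UMIs. The unnamed clusters were picked as the lowest, and their distance from the next ones was not tested. Usp18 was not low in the same cells: 91.9, 224 and 240 CPM, against 60.4, 186 and 150 CPM in cDC2-like cells. Isg15 was at 32.0, 547 and 307 CPM. The other unnamed cells included an R848 cluster of 423 cells led by Il12b, a cytokine subunit gene, with Isg15 at 1117 and Usp18 at 437 CPM. A few cells outside the sorted types showed the members too. In 65 B cell-like Control cells Ube2l6 had 0 UMIs, which allows up to 7.39 CPM, and Usp18 2 UMIs, while Herc6 was at 24.6 CPM (11.8 to 45.3). In 53 R848 B cell-like cells Isg15 was at 383 CPM, Usp18 at 79.8 and Ube2l6 at 20.5 (9.81 to 37.6).

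**Figure D5:**
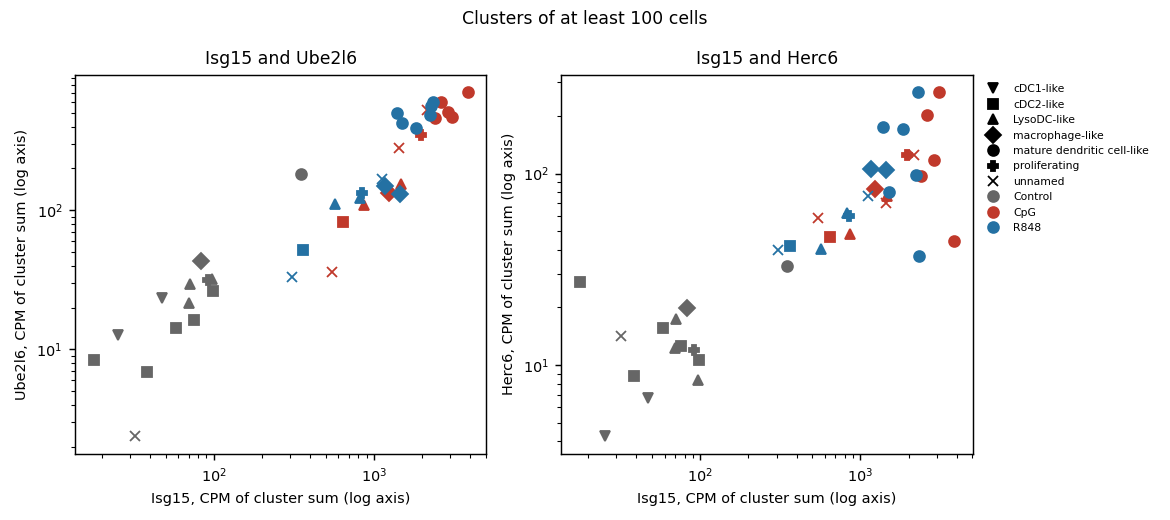
Isg15 against Ube2l6 (left) and Herc6 (right) in clusters of at least 100 cells, in CPM of the cluster sum on log axes, coloured by library with symbols for the class. The crosses lowest in Ube2l6 in each colour are the unnamed clusters at 2.37, 35.8 and 33.1 CPM, and on the right the pair of circles near 40 CPM are the mature clusters with Herc6 at 44.6 and 37.3 CPM.

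The genes of the parallel chains did not follow the members. Of 25 ubiquitin, NEDD8 and SUMO genes, 18 to 21 were measured in each of the 8 comparisons of the 4 main classes, and 0 were at least 2-fold higher and 0 at least 2-fold lower. Their median log2 ratio lay between 0.07 and 0.28. Ube2n and Sumo2, a conjugating enzyme and a modifier of the other systems, stood in LysoDC-like cells at 162 and 311 CPM in Control, 180 and 315 with CpG, and 184 and 331 with R848. Rps27a, which encodes a ribosomal protein fused to ubiquitin, was the list's most abundant gene and lower in the same cells, at 3489, 2826 and 2766 CPM (log2 ratios of -0.30 and -0.33). Ubb, which encodes ubiquitin, was at 2045 CPM in Control, 2258 with CpG and 2155 with R848 in the same cells. In CpG cDC1-like cells 3 of 20 were higher, a share near the 16% of all genes in that comparison, among them Ube2l3 (log2 ratio 1.15) and Usp5 (1.41).

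Of the receptor and its transcription factor complex, 1 to 3 of the 6 or 7 genes measured were at least 2-fold higher. Stat2, a transcription factor of the complex, was at 28.7 CPM in Control LysoDC-like cells, 98.3 with CpG and 80.1 with R848. Ifnar1 and Ifnar2, the receptor subunits, were at 90.5 and 172 CPM in Control, 89.3 and 195 with CpG and 89.9 and 215 with R848 in those cells. Ifnar2, the subunit that USP18 binds, was lower in the mature class than in these cells in each library, at 26.4, 26.7 and 27.2 CPM. Of 18 partners and described substrates of ISG15, 3 to 8 of the 12 to 16 measured were at least 2-fold higher, with medians between 0.30 and 1.17. Ifih1, an RNA sensor whose ISG15 modification is described, was at 34.4, 165 and 105 CPM in LysoDC-like cells, and Ifit1 at 14.6, 125 and 129 CPM. Itgb2, part of the receptor for released ISG15, was lower in the treated mature class, at 31.7 CPM in Control, 15.9 with CpG and 10.1 with R848. Among core interferon-stimulated genes, 20 to 29 of the 22 to 29 measured were higher in the comparisons of the 4 main classes, with medians from 1.79 to 2.27, and 27 of 27 in CpG cDC1-like cells, with a median of 2.36. That list holds no member of the conjugation system. It shares Ifih1, Ifit1, Ddx58, Mx1 and Eif2ak2 with the partners, so the counts of these lists overlap. Of 20 interferon genes, 2 were detected in Control with 3 UMIs in all, 5 with CpG (60 UMIs) and 4 with R848 (8 UMIs). Of the 60 CpG UMIs, the 18 of Ifnl2 and the 34 of Ifnl3 were each found in 1 cell.

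Likeness to Isg15 was measured as the Pearson correlation of log2(CPM + 5) over 23 sums of a library and class with at least 30 cells, among 7523 other genes. These sums share 3 libraries, so the value is a description. Herc6 was the gene most like Isg15 (r = 0.95). Among the next 7 were 3 guanylate-binding protein genes of interferon-driven cell defence and 3 other genes: Gbp9 (0.92), Gbp2 (0.91), Phf11b (0.91), Gbp4 (0.90), Parp9 (0.90) and Oasl1 (0.90). Uba7 ranked 9 (0.90), Ube2l6 10 (0.90) and Usp18 29 (0.84). By Spearman correlation 5 of the 8 genes stayed among the top 8, with Herc6 at rank 2 and Usp18 at rank 37. Among the members themselves the lowest correlation was between Usp18 and Herc6, 0.73.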

How the data were processed

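Cell Ranger 2.0.0 and the genome build mm10 are named in the submitters' processing notes, without a stated role. What the authors deposited for each library is a matrix of UMI counts by gene and barcode, whole numbers with no normalisation, beside its gene and barcode names. No source used here gives the annotation release.

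Cells with at least 500 genes and at most 10% mitochondrial UMIs were kept. Doublets were scored against simulated ones and 225, 202 and 209 cells removed. Each library was clustered (scanpy 1.11.5, leidenalg 0.10.2; 2000 variable genes, 30 components, 15 neighbours, resolution 1) without the members and listed interferon-stimulated genes, and clusters were named from 17 marker lists with score limits set after the data were seen: 2 for cells outside the sort, 1 for proliferating, 0.5 for mature and 0.1 for sorted classes. Clusters with other leading genes stayed unnamed.

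UMIs were summed per class and library and scaled to CPM. Depth per class sum sets the precision: levels carry exact Poisson, ratios exact conditional binomial and shares exact Clopper-Pearson intervals. A count of 0 is limited by 3 counts. UMIs are counted once per molecule, but cells are not replicates and 12 mice were pooled per library, so no test was run. The ratio and its limit were tested on simulated data. All 5 members are described. List genes were named by level, at most 6 per list, and like-pattern genes as the 8 highest correlations. The members and lists were chosen with earlier results of these data known. Alternatives are given in the closing section. Values of some listed genes are not reported here.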

Additional observations from a re-analysis of the deposited data

How the results depend on the processing

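No paired analysis was possible because each group holds 1 library and no test was run. The ratio of Isg15 to Control was at least 2-fold in all 106 values recomputed over the classes and alternatives (log2 2.31 to 4.92). All 106 values of Usp18, Herc6 and Ube2l6 were above 0, and 80, 101 and 102 were at least 2-fold. Uba7 was above 0 in 102 and at least 2-fold in 55. Its 4 values below 0 were all in mature dendritic cell-like cells. With no doublet removal they were -0.40 with CpG and -0.28 with R848, and with cells of at least 1000 genes and at most 5% mitochondrial UMIs -0.40 and -0.30. Under each of these settings 1 member was at least 2-fold higher there with either agonist, in place of 3. The Control class then held 49 and 50 cells, in place of 249, and the cause was not tested. A minimum of 100 CPM, which leaves fewer members measured, gave 2 members in cDC2-like cells with CpG and 2 with R848, and 3 with CpG in LysoDC-like and 3 in macrophage-like cells. A pseudocount of 20 CPM gave 3 in cDC2-like cells with R848. The other 97 recomputed counts were within 1.5 times the reported one, a limit that a fall from 5 to 4 members does not pass. At its lowest setting the log2 ratio of Uba7 with CpG was 0.98 in cDC2-like, 0.77 in LysoDC-like and 0.70 in macrophage-like cells. With R848 it was 0.82 in cDC2-like and 0.86 in macrophage-like cells. All of these are under 2-fold. Median-of-ratios scaling would lower log2 ratios by 0.13 (CpG) and 0.14 (R848) in cDC2-like cells, 0.14 in R848 macrophage-like and 0.19 in CpG cDC1-like cells. In CpG LysoDC-like and macrophage-like cells it would lower them by 0.04 and 0.09, where Uba7 stood at 1.03 and 1.05. Leaving out a doubtful cluster (Ccr7-bearing cDC2-like cells of Control, or a CpG LysoDC-like or R848 macrophage-like cluster), chosen after seeing the data, left 4 or 5 members higher. A cDC1-like class for CpG did not form with all genes in the clustering, so it has no value there.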
